A study of Mus musculus with 16 samples.

Results

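The 10 genes followed here belong to the bone morphogenetic protein (BMP) pathway and were compared after deletion of Cul4b in the mouse intestinal epithelium: the ligands Bmp2 and Bmp4, the receptors Bmpr1a and Bmpr2, the signal carrier Smad4, the inhibitory Smads Smad6 and Smad7, and the targets Id1, Id2 and Id3. They were taken by gene name from the deposited count tables, where all 10 are present among 52636 genes in the crypt and CAG organoid tables and 54532 genes in the IEC organoid table. RNA-seq covered 16 libraries from the small intestine of C57BL/6 mice in 3 experiments. In the first, crypts of 4 KO IEC samples (pVillin-Cre; Cul4b fn/Y) were compared with crypts of 4 WT samples (Cul4b fn/Y without Cre). In the second, organoids of the same genotypes were compared, 2 KO IEC against 2 WT. In the third, 2 KO CAG organoid samples (CAG-CreERT2; Cul4b fn/Y, Cre induced with 4-hydroxytamoxifen) were compared with 2 WT organoid samples, for which the sources do not state whether they carried CreERT2 or received the drug. The Villin promoter confines Cre to the intestinal epithelium, CAG is active in all cells, and the Cul4b fn allele is X-linked, so that 1 recombined copy leaves male cells without the gene. The ages of the animals behind each library are not in the labels. The methods of the study call the libraries of a group biological replicates, and a table legend of its supplement counts the KO IEC mice as N = 4. The labels do not tie the libraries to separate animals or cultures, and the p-values measure the spread between these libraries.

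BMP ligands bind paired type I and type II receptors, which phosphorylate receptor-regulated Smads. These join Smad4, enter the nucleus and switch on targets, among them the Id genes, whose products hold E proteins away from DNA, and Smad6 and Smad7, which shut the receptors down in a negative loop. In the intestine BMP activity is high along the villus and low at the crypt base, where antagonists such as Noggin from the stroma shield the stem cells, and Bmp4 is made mainly by mesenchymal cells under the epithelium. Noggin is also an ingredient of the organoid medium in the methods of the study, so the cultures were grown with a BMP antagonist. Which of the culture media (with or without Wnt3a) the sequenced organoids had is not stated.

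The Cul4b transcript (ENSMUSG00000031095, chromosome X, 38533274 to 38576196 on GRCm38, the build of all positions given) followed the labels in every library. WT crypts averaged 33.9 ± 3.01 CPM and KO IEC crypts 1.43 ± 0.632 CPM (SD over 4 libraries each), where CPM is the usual depth-scaled count, adjusted by edgeR's TMM factors. The IEC organoids averaged 78.2 ± 7.07 CPM without Cre and 1.72 ± 0.0486 CPM with it, and the CAG organoids 71.5 ± 1.97 and 4.26 ± 1.31 CPM (SD over 2 libraries each). The fall was significant in each experiment, with log2 fold changes of -4.56, -5.50 and -4.02 (adjusted p = 0.000169, 0.0311 and 1.93e-06, edgeR quasi-likelihood test with Benjamini-Hochberg adjustment). Total counts were 9311734 to 13479974 in the crypts, 15006730 to 16881395 in the IEC organoids and 7348191 to 10462275 in the CAG organoids. A floor of 3 counts was worth 0.178 to 0.408 CPM over all libraries, scaled here by total counts without the TMM factors. This floor covers counting error only.

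The tissue labels were checked against marker genes. Epithelial markers (8 genes, Krt8 highest) summed to 10350 ± 853 CPM in WT crypts (SD over 4 libraries), with Vil1 higher in KO, 0 of 8 called in the IEC organoids (edgeR, DESeq2 and unadjusted p alike), and 4 higher and 1 lower in the CAG organoids. Over all genes tested, 4.3% were called higher in KO crypts, and 18.1% higher and 13.4% lower in KO CAG organoids. The 12 mesenchyme markers summed to 18.2 ± 2.12 CPM in WT crypts, with Vim the most abundant over the crypt libraries. Foxl1, which marks the cells next to the crypt, was at 0 counts in every crypt library. Smooth muscle and endothelial markers summed to 1.10 and 1.37 CPM in WT crypts. One feature of the crypt libraries was not set by genotype. Mitochondrial ribosomal RNA took 18.9 to 25.2 CPM in WT replicate 1 and KO IEC replicates 1 to 3, 834 and 1078 CPM in WT replicate 4 and KO IEC replicate 4, and 2840 and 2873 CPM in WT replicates 2 and 3. No KO library was in the high class, so for these 2 libraries class and genotype are confounded, and differences within the low class (1 WT, 3 KO) and the middle class (1 WT, 1 KO) are given beside the crypt results.

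In WT crypts Id1, Id3 and Smad4 were the most abundant of the 10 per length. Id1 stood at 64.0 CPM per kb, higher than 93.0% of the genes tested, Id3 at 42.3 and Smad4 at 34.1 CPM per kb. Bmpr1a followed at 15.7, Id2 at 7.07, Smad7 at 5.90, Smad6 at 5.53, Bmpr2 at 2.23 and Bmp2 at 2.05 CPM per kb. Libraries of Id2, Smad7 and Smad6 overlapped in this order, as did those of Bmpr2 and Bmp2.

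Bmp4 (chromosome 14, 46383520 to 46390669) was close to absent. Its counts were 1, 1, 0 and 1 in the WT crypts and 1, 0, 0 and 4 in the KO IEC crypts, 1 and 2 against 0 and 0 in the IEC organoids, and 0 and 3 against 2 and 2 in the CAG organoids. Only 1 of the 16 libraries, KO IEC crypt replicate 4, rose above 3 counts, and Bmp4 was below the low-count filter in each experiment. A difference in Bmp4 was therefore not detectable at this depth.

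Among the genes tested, Id3, Id1, Smad7 and Smad6 differed most between WT crypts and WT organoids. The tables were normalised separately, and tissue, medium, preparation and sequencing cannot be told apart, so these levels are set side by side with no test. Id3 averaged 75.7 ± 9.97 CPM in WT crypts (SD, n = 4), 4.23 ± 1.19 CPM in WT organoids of the IEC experiment and 1.17 ± 0.558 CPM in those of the CAG experiment (SD, n = 2 each). The crypt level was thus 17.9 and 64.6 times the organoid level, ratios that only 0.361% and 0.0395% of the genes reached. Id1 was 5.45 and 19.0 times as high in crypts, at 74.2 ± 8.03 CPM against 13.6 ± 3.30 and 3.90 ± 1.26 CPM. The ratios for Smad7 were 3.40 and 8.73, and for Smad6 2.82 and 8.13. In each of these 4 genes every crypt library lay above every organoid library of both experiments.

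The other genes differed less, and not all in the same direction. Id2 averaged 17.2 ± 2.20 CPM in WT crypts and 15.6 ± 2.13 and 12.3 ± 2.75 CPM in the WT organoids, ratios of 1.11 and 1.40. Its libraries overlapped in the IEC experiment, while every WT crypt library lay above both WT libraries of the CAG experiment. Smad4, the shared carrier, was nearly level, with ratios of 1.00 and 1.06. Bmp2 was lower in crypts, by a factor of 1.71 and 3.38 in favour of the organoids, and Bmpr1a by 1.51 and 1.29. Bmpr2 was 1.30 times as high in crypts as in the IEC organoids but 1.36 times as high in the CAG organoids as in crypts. Over all genes tested in both tables the median ratio of crypts to organoids was 0.996 (12754 genes) and 0.879 (12646 genes).

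**Figure D1:**
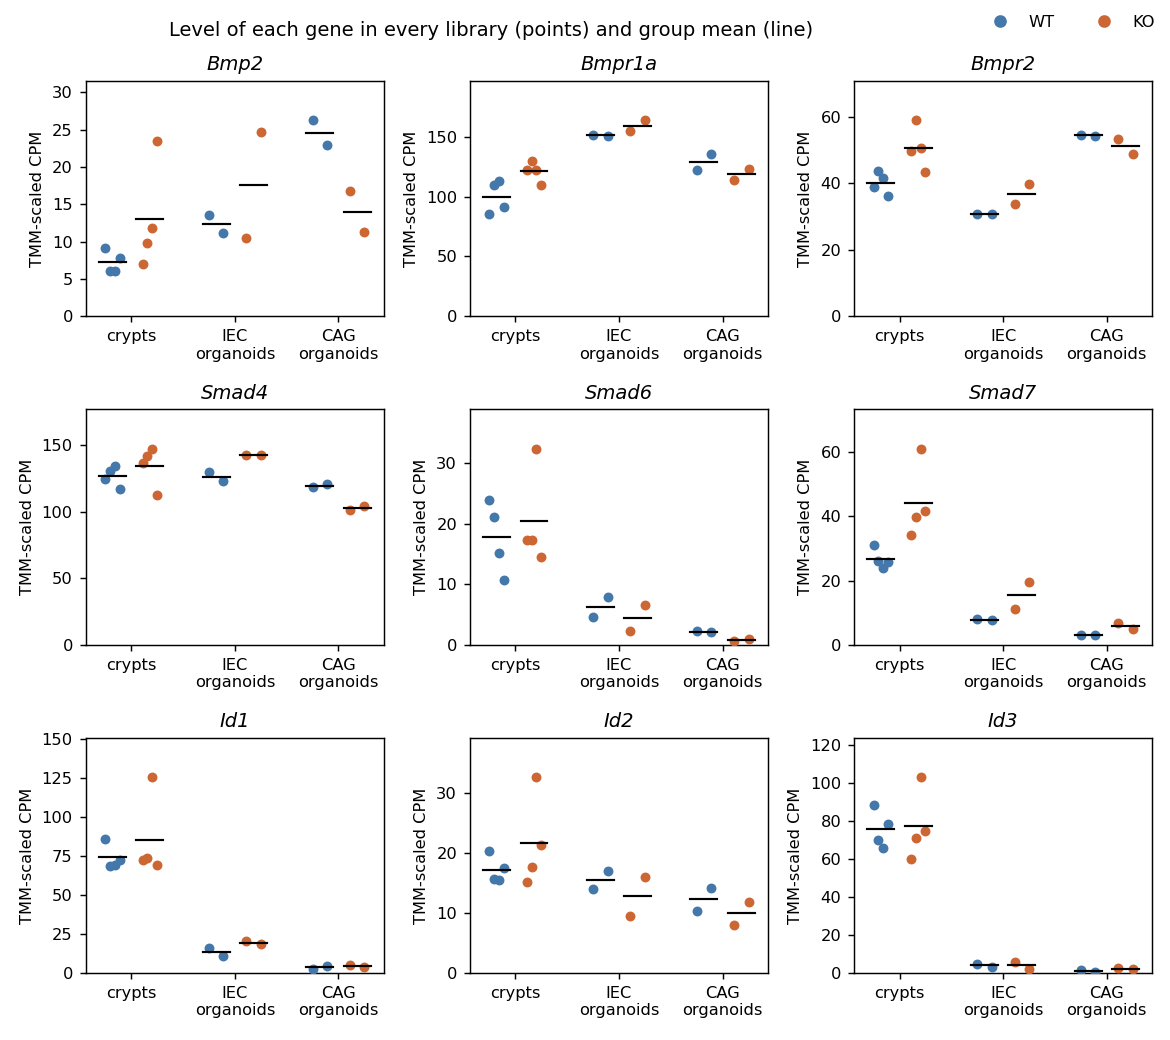
TMM-scaled CPM (vertical axes, starting at 0) of 9 BMP pathway genes in every library of the 3 experiments, with WT in blue, KO in orange and a line at each group mean. Id1, Id3, Smad6 and Smad7 were far lower in both organoid experiments than in crypts, while Smad4 was nearly level, and Smad7 lay higher in every KO library than in every WT library of the same experiment.

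The upstream sequences of Smad6, which was lower in organoids, and Id2, which differed less, are shown to put these target genes side by side. RefSeq's table of gene starts (GRCm38.p6) holds 6 of the 10 genes, and the 250 bases before the start were searched on both strands for GGCGCC and GCCGNCGC, letters bound by BMP-activated Smads, and CAGAC, the Smad-binding element. Of 32851 windows in the table, 9.59%, 6.89% and 42.2% hold these letters. Capitals mark a match, and each sequence is written 5′ to 3′ on the gene's own strand, the minus strand in both. The RefSeq start of Id2 lies within the gene span of GENCODE, which reaches upstream through a longer transcript. The Id2 bases shown are in an intron of that transcript, and the 161 bases of the window covered by its exon are left out.
Id2, chr12:25096254-25096342: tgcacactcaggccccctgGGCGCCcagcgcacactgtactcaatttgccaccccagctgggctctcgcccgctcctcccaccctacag
Smad6, chr9:64022060-64022309: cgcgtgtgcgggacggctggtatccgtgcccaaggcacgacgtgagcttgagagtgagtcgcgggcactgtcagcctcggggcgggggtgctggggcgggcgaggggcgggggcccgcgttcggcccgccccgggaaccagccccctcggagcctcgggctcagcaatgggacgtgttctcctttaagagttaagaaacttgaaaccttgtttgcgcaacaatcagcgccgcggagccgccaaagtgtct

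Id2 held GGCGCC once, 231 bases before its RefSeq start and within the longer transcript, and the Smad6 window held none of the motifs. GGCGCC also occurred once in the windows of Bmpr1a and Bmpr2, GCCGNCGC occurred 2 times in Bmpr1a, and CAGAC occurred 2 times in Id3. The Bmp4 window held none. These are matches of letters and say nothing about binding.

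Smad7 passed the test of KO against WT in the crypts and the CAG organoids, and Bmp2 and Smad6 passed in the CAG organoids. After the low-count filter 9 of the 10 were tested in each experiment. In the crypts 1 of 9, Smad7, passed an adjusted p of 0.05, and it was higher in KO IEC, beside 6.96% of all 13427 genes tested in either direction. In the IEC organoids 0 of 9 passed (edgeR quasi-likelihood test), beside 0.00717% of 13938 genes, which is Cul4b alone. At an unadjusted p under 0.05 were 1 of 9 there, beside 4.66% of all genes, and DESeq2 also called 0 of 9. In the CAG organoids 3 of 9 passed, with Smad7 higher and Bmp2 and Smad6 lower in KO CAG. This stood beside 31.5% of 13598 genes, so the share of the 9 genes called was near that of all genes and is no result about them. A gene that missed the threshold is not shown to be unchanged, and the 95% intervals given with the genes show the range of differences that these libraries leave. Unadjusted, 4 of 9 in the crypts and 5 of 9 in the CAG organoids were under 0.05, beside 31.9% and 43% of all genes. With a fold change of at least 2 as a second threshold the counts were 0, 0 and 1 of 9, beside 1.79%, 0.00717% and 8.6%. Groups did not overlap for 1, 5 and 6 of the 9 genes in the crypts, IEC organoids and CAG organoids, beside 17.5%, 38.9% and 69.7% of all genes. KO lay above WT in 1, 5 and 2 of these, beside 8.7%, 19.4% and 35.5% of all genes, and below WT in 0, 0 and 4, beside 8.79%, 19.4% and 34.2%. The median log2 fold change of the 9 was 0.28, 0.17 and -0.12, beside -0.01, -0.01 and 0.00 for all genes tested. Fewer cells of a type and less RNA per cell cannot be told apart in such bulk libraries.

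**Figure D2:**
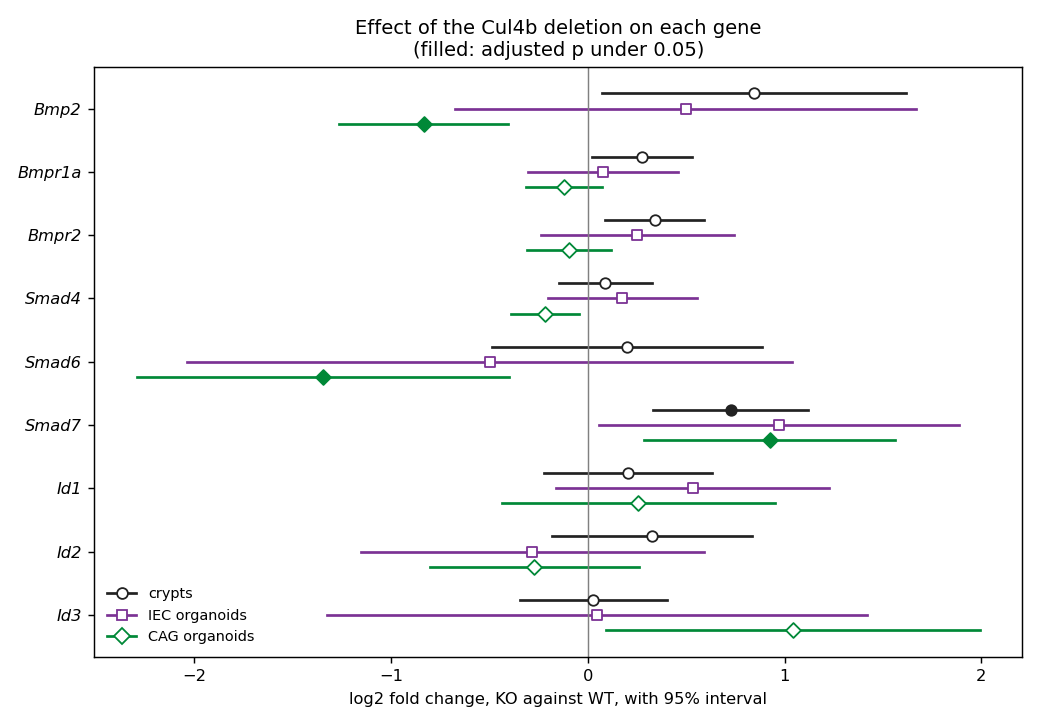
Log2 fold change of KO against WT (horizontal axis) with its 95% interval for 9 genes, 1 symbol per experiment, filled where the adjusted p was under 0.05. Smad7 lay right of 0 in all 3 experiments at 0.73, 0.97 and 0.92, whereas Bmp2 lay at 0.85 and 0.50 in the Villin-Cre experiments and at -0.84 in the CAG organoids.

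Smad7 (chromosome 18, 75367529 to 75395935) encodes an inhibitory Smad that blocks type I receptors of both the BMP and the TGF-beta branch. In the crypts it was at 31.0, 26.1, 24.0 and 25.6 CPM in WT replicates 1 to 4 and at 34.2, 39.6, 61.0 and 41.7 CPM in KO IEC replicates 1 to 4. All KO libraries lay above all WT libraries, with the largest gap from KO replicate 3. The level rose 1.65-fold, a log2 fold change of 0.73 (SE 0.18, 95% interval 0.33 to 1.12, adjusted p = 0.0467, edgeR quasi-likelihood test with Benjamini-Hochberg adjustment). Within the low and the middle class of mitochondrial ribosomal RNA the difference was 0.49 and 0.70 log2 CPM.

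The crypt call for Smad7 lay at the edge of its threshold. It was lost without any of WT replicates 1, 2 or 3 or KO replicates 2, 3 or 4 (adjusted p from 0.0596 to 0.132) and kept without WT replicate 4 (0.0478) or KO replicate 1 (0.0232), while the log2 fold change stayed between 0.55 and 0.83. Over all genes, the 934 calls became 20, 3 and 11 without WT replicates 1 to 3, and 2, 2 and 513 without KO replicates 2 to 4. Without WT replicate 4 or KO replicate 1 they became 1864 and 2468. The Smad7 call was also lost with the mitochondrial ribosomal RNA class as a covariate (0.60, adjusted p = 0.242, edgeR), with the replicate block (0.70, adjusted p = 0.0939) and with library size as the only scaling (0.63, adjusted p = 0.0505). Those fits called 2, 4 and 635 of all genes. The call was kept with DESeq2 (adjusted p = 0.00414), and by edgeR with no low-count filter (0.015) and in 1 fit of all 16 libraries (0.0339).

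Markers of villus enterocytes were set beside Smad7 in the crypts, and their sums overlapped between WT and KO IEC libraries. These 10 genes, with Apoa1 the most abundant and none at 0, summed to 5941, 3046, 2223 and 9533 CPM in WT replicates 1 to 4 and to 8221, 13000, 17782 and 18202 CPM in KO IEC replicates 1 to 4. All 10 had a positive log2 fold change, with a median of 1.51. By edgeR 0 of 10 were called, 8 of 10 had an unadjusted p under 0.05, and DESeq2 called 6 of 10. Over all genes tested, edgeR called 6.96%, 31.9% had an unadjusted p under 0.05, and DESeq2 called 2457 of 13427. With the marker score as a covariate the Smad7 log2 fold change was 0.44 (adjusted p = 0.486, edgeR). In that fit the calls over all genes went from 934 to 1.

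The IEC organoids had less Smad7, 8.06 and 7.63 CPM in WT against 11.1 and 19.6 CPM in KO. Both KO libraries were above both WT libraries, and KO replicate 2 was well above KO replicate 1. The log2 fold change was 0.97 (SE 0.36, 95% interval 0.05 to 1.89) and did not pass (adjusted p = 0.856, edgeR). Without KO replicate 1 it was 1.32 and passed (adjusted p = 0.0155), on the assumption that the lone KO library varies like the WT pair. In that fit 2322 genes were called in place of 1. Enterocyte markers summed to 6319 and 11285 CPM in WT and to 4348 and 14263 CPM in KO, and their part in the Smad7 values was not tested in these 4 libraries. KO replicate 2, which also had the most Bmp2 and Bmp3 of the 4, stood apart in further marker lists. Among these only the mesenchyme list held genes at 0 in every library. Its goblet markers (5 genes, Fcgbp the most abundant) summed to 6715 CPM against 1659 to 1955 CPM in the other 3 libraries. Its enteroendocrine markers (5 genes, Chgb the most abundant) summed to 877 CPM against 248 to 433 CPM, and its tuft markers (4 genes, Dclk1 the most abundant) to 60.6 against 24.6 to 32.9 CPM. Its stem cell markers (5 genes, Olfm4 the most abundant) were the lowest, at 333 CPM against 1424 to 3451 CPM. Its mesenchyme markers (12 genes, Vim the most abundant, 3 at 0 in every library) summed to 21.9 CPM against 9.90 to 10.4 CPM. The part of these markers in its BMP gene levels was not tested.

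The CAG organoids had the least, 3.13 and 2.98 CPM in WT against 6.67 and 5.10 CPM in KO, from 26, 23, 48 and 53 counts. The groups did not overlap, and the level rose 1.90-fold (log2 fold change 0.92, SE 0.29, 95% interval 0.29 to 1.56, adjusted p = 0.0327, edgeR). The call was lost with DESeq2 (adjusted p = 0.156) and in 1 fit of all 16 libraries (0.159). Without either WT replicate or KO replicate 1 the adjusted p was 0.104 to 0.163, and without KO replicate 2 it was 0.0222. Enterocyte markers summed to 4574 and 4981 CPM in WT and to 12950 and 10355 CPM in KO, and their part in the Smad7 difference was not tested in this experiment.

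**Figure D3:**
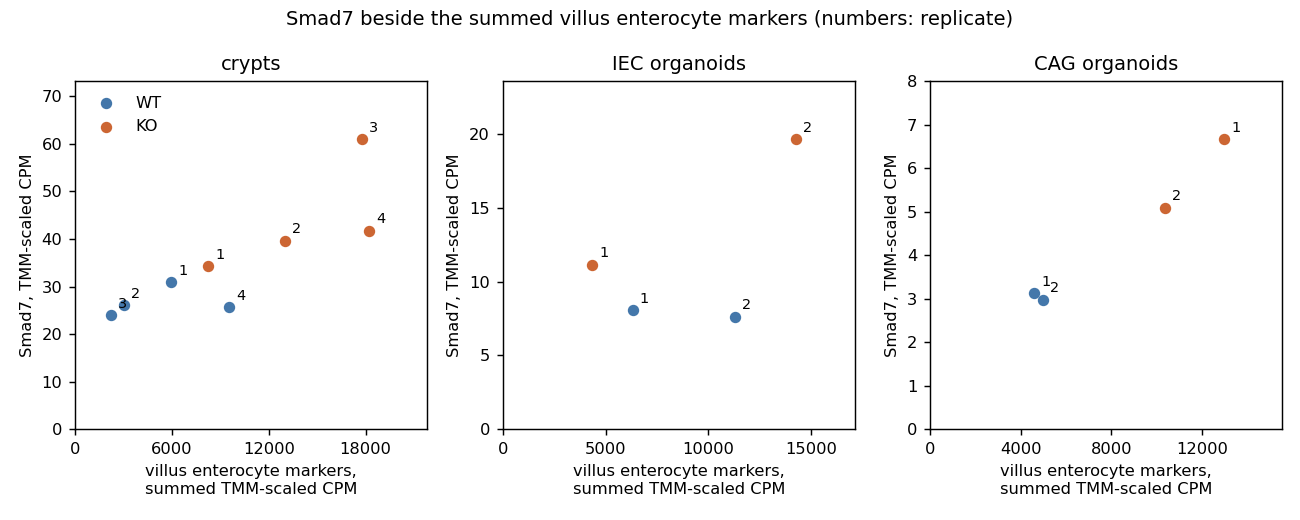
Smad7 (vertical axis, TMM-scaled CPM) against the summed villus enterocyte markers (horizontal axis, TMM-scaled CPM) in each library, 1 panel per experiment, with replicate numbers beside the points. In the CAG organoids Smad7 and the marker sum were higher in both KO libraries than in both WT libraries. In the crypts every KO library had more Smad7 than every WT library. The marker sum of KO replicate 1 lay within the WT range there, and those of KO replicates 2 to 4 lay above it. Among the IEC organoids, KO replicate 1 had the lowest marker sum, 4348 CPM, and more Smad7 than both WT libraries. KO replicate 2 had the highest marker sum, 14263 CPM, and the most Smad7, 19.6 CPM.

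Smad6 (chromosome 9, 63953076 to 64022059) encodes the inhibitory Smad that acts mainly on the BMP branch. It passed the test in the CAG organoids alone of the 3 experiments, with 2.29 and 2.07 CPM in WT against 0.695 and 0.962 CPM in KO, from only 19, 16, 5 and 10 counts. Both KO libraries were below both WT libraries. The level fell to 0.393 of WT (log2 fold change -1.35, SE 0.42, 95% interval -2.29 to -0.40, adjusted p = 0.0351, edgeR). The call was lost without any of the 4 libraries (adjusted p from 0.0787 to 0.23) and with DESeq2 (adjusted p = 0.232).

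In the other experiments Smad6 showed no difference beyond the spread. KO IEC crypts had 17.3, 17.3, 32.3 and 14.4 CPM against 23.9, 21.1, 15.1 and 10.8 CPM in WT, with overlapping groups and a log2 fold change of 0.20 (95% interval -0.49 to 0.88, adjusted p = 0.675, edgeR). Without KO replicate 3 it was -0.10. The IEC organoids had 4.61 and 7.96 CPM in WT and 2.35 and 6.55 CPM in KO (log2 fold change -0.50, 95% interval -2.04 to 1.04, adjusted p = 0.863, edgeR), again overlapping.

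Bmp2 (chromosome 2, 133552159 to 133562885), a ligand made by the epithelium among other cells, had log2 fold changes of different sign in the 3 experiments. WT CAG organoids had 26.3 and 22.9 CPM of it and KO CAG organoids 16.8 and 11.3 CPM. Both KO libraries were lower, and the level fell to 0.561 of WT (log2 fold change -0.84, SE 0.19, 95% interval -1.26 to -0.41, adjusted p = 0.00876, edgeR). Without each of the 4 libraries in turn the log2 fold change was -1.15 to -0.55 and passed, in fits where an arm of 1 library is assumed to vary like the other arm. The call was lost in 1 fit of all 16 libraries (adjusted p = 0.372, edgeR).

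In the crypts Bmp2 was at 9.13, 6.13, 6.08 and 7.80 CPM in WT and at 7.08, 9.85, 11.9 and 23.5 CPM in KO IEC replicates 1 to 4. KO replicates 2, 3 and 4 lay above all WT libraries, replicate 1 lay among them, and replicate 4 was far above the rest. The log2 fold change of 0.85 (SE 0.34, 95% interval 0.07 to 1.62) did not pass (adjusted p = 0.129, edgeR). With the enterocyte marker score as a covariate it was 0.04 (adjusted p = 0.98, edgeR), in a fit where calls over all genes went from 934 to 1. The log2 fold change was 0.41 without KO replicate 4, and 1.05 without KO replicate 1, where it passed (adjusted p = 0.0483, edgeR). KO replicate 4 also stood apart in the 4 tuft cell markers, of which Trpm5 was the most abundant and none was at 0, with a sum of 191 CPM against 30.5 to 49.0 CPM in the other 7 crypt libraries. The part of tuft cell markers in the Bmp2 values was not tested. Within the low class the difference was 0.04 log2 CPM and within the middle class 1.57. WT organoids of the IEC experiment had 13.6 and 11.2 CPM of Bmp2 and KO organoids 10.5 and 24.6 CPM, so that 1 KO library was the lowest and the other the highest of the 4 (log2 fold change 0.50, 95% interval -0.68 to 1.67, adjusted p = 0.856, edgeR). Without KO replicate 2 the sign turned, to -0.25, and without KO replicate 1 the value was 0.98 (adjusted p = 0.0327).

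The direct test of whether the difference of KO from WT varied between experiments gave the largest variation of the 9 genes by p for Bmp2. Its log2 fold change in CAG organoids minus that in crypts was -1.68 (SE 0.60, unadjusted p = 0.0146, adjusted p = 0.221, edgeR interaction test over 16 libraries), with effects of -0.82 and 0.85 in this joint fit. Of the 9 genes, 0 passed in any of the 3 differences between experiments by edgeR and 0 by DESeq2, beside 0.00642%, 0.372% and 0.385% of 15585 genes, and at an unadjusted p under 0.05 were Bmp2, Bmpr2 and Bmpr1a for CAG organoids against crypts and Smad4 for CAG against IEC organoids. With no low-count filter the Bmp2 difference passed (-1.65, adjusted p = 0.000402, edgeR). These fits share the spread of a gene across experiments, though their biological coefficients of variation ran from 0.0815 to 0.280. In the CAG organoids the deletion cannot be told apart from Cre or drug, since their state in WT is not stated.

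Neither receptor passed in the crypts by edgeR. Bmpr1a (chromosome 14, 34410734 to 34503341), the type I receptor, averaged 99.8 ± 13.5 CPM in WT and 121 ± 8.30 CPM in KO crypts (SD over 4 libraries each), and the groups overlapped. The log2 fold change was 0.28 (95% interval 0.02 to 0.53, adjusted p = 0.130, edgeR), with 0.55 and 0.26 log2 CPM within the low and middle class. Bmpr2 (chromosome 1, 59763400 to 59879014), the type II receptor, was at 38.8, 43.8, 41.6 and 36.1 CPM in WT crypts and at 49.6, 58.9, 50.7 and 43.5 CPM in KO. KO replicates 1 to 3 lay above all WT libraries and replicate 4 just below the highest of them. Its log2 fold change was 0.34 (95% interval 0.09 to 0.59, adjusted p = 0.0789, edgeR), and DESeq2's Wald test called it (adjusted p = 0.0426).

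Neither receptor passed in the organoids. Bmpr1a had log2 fold changes of 0.08 (95% interval -0.31 to 0.46) in the IEC and -0.12 (-0.31 to 0.07) in the CAG organoids. Bmpr2 had 0.25 (-0.24 to 0.74) and -0.09 (-0.31 to 0.12). The intervals of the CAG organoids lie within 0.31 of 0 on the log2 scale for both genes.

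Smad4 (chromosome 18, 73639009 to 73703780), the shared partner of the receptor-regulated Smads of both branches, varied little. Crypts averaged 127 ± 7.63 CPM in WT and 135 ± 15.1 CPM in KO (SD over 4 libraries each), with a log2 fold change of 0.09 (95% interval -0.15 to 0.32, adjusted p = 0.577, edgeR). The IEC organoids had 130 and 123 CPM in WT against 143 and 143 CPM in KO (log2 fold change 0.17, 95% interval -0.20 to 0.55). The CAG organoids had 119 and 121 CPM in WT and 102 and 104 CPM in KO. There the KO libraries were lower by little but without overlap, and the log2 fold change of -0.22 (95% interval -0.39 to -0.04) missed the threshold (adjusted p = 0.0577, edgeR). It passed with library size only (-0.25, adjusted p = 0.0378), without KO replicate 1 (0.0419) and without KO replicate 2 (0.0247).

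Id1, Id2 and Id3, read as a response to BMP signals in many cells, did not pass in any experiment. Id1 (chromosome 2, 152736251 to 152737410) in the crypts was at 86.1, 69.0, 69.4 and 72.4 CPM in WT and at 72.8, 73.9, 126 and 69.6 CPM in KO IEC replicates 1 to 4. KO replicate 3 stood alone and the other 3 KO libraries lay within the WT range. The log2 fold change was 0.20 (95% interval -0.22 to 0.63, adjusted p = 0.482, edgeR) and was -0.03 without KO replicate 3. The IEC organoids had 15.9 and 11.3 CPM of Id1 in WT against 20.7 and 18.8 CPM in KO, with KO above WT (log2 fold change 0.53, 95% interval -0.16 to 1.23, adjusted p = 0.856, edgeR). The CAG organoids had 3.01 and 4.79 CPM in WT against 5.14 and 4.23 CPM in KO, with overlap (log2 fold change 0.26, 95% interval -0.44 to 0.95).

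Id3 (chromosome 4, 136143497 to 136145755), the other Id gene that was high in crypts, was at 88.5, 70.0, 65.9 and 78.3 CPM in WT crypts and at 59.8, 71.0, 103 and 74.9 CPM in KO. KO IEC crypts thus held both the lowest and the highest library, and replicate 3 was again the highest. The log2 fold change was 0.03 (95% interval -0.35 to 0.40, adjusted p = 0.924, edgeR). Id3 was near the floor in the CAG organoids, with 13 and 6 counts in WT and 19 and 24 counts in KO, or 1.57, 0.777, 2.64 and 2.31 CPM. Both KO libraries were higher, yet the log2 fold change of 1.04 (SE 0.43, 95% interval 0.09 to 1.99) did not pass (adjusted p = 0.0885, edgeR). The IEC organoids had 5.07 and 3.38 CPM in WT against 6.15 and 2.57 CPM in KO, with a log2 fold change of 0.04 and a wide interval of -1.33 to 1.42.

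Id2 (chromosome 12, 25093799 to 25097140) had the smallest ratio of crypts to organoids among Id1, Id2 and Id3 in both organoid experiments. In the crypts it was at 20.2, 15.7, 15.4 and 17.5 CPM in WT and at 15.1, 17.6, 32.6 and 21.2 CPM in KO. KO replicate 3 was the highest of the 8 and KO replicate 1 the lowest (log2 fold change 0.33, 95% interval -0.18 to 0.83, adjusted p = 0.341, edgeR). The value was 0.078 without KO replicate 3 and 0.46 without KO replicate 1. The organoid values were -0.28 (95% interval -1.15 to 0.59) in the IEC and -0.27 (-0.80 to 0.26) in the CAG experiment, with overlapping groups in both.

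The proportion of Id1 to Id3 is given for each experiment as a description, with no test. The ratio of their counts was 0.925 to 1.22 over the 8 crypt libraries. IEC organoids had ratios of 3.15 and 3.33 in WT and 3.36 and 7.32 in KO. CAG organoids had 1.92 and 6.17 in WT and 1.95 and 1.83 in KO. The values of 7.32 and 6.17, which stand apart from the other libraries of their experiment, rest on 38 and 6 Id3 counts.

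The wider pathway was described from 54 further genes present in the tables, in lists by role. After filtering, 25, 27 and 27 of them were tested in the crypts, IEC organoids and CAG organoids. In the crypts 2 were higher and 0 lower in KO, beside 4.3% and 2.66% of all genes. In the IEC organoids 0 of 27 passed by edgeR, beside 0.00717% of all genes, 5 had an unadjusted p under 0.05, beside 4.66%, and DESeq2 called 0. The CAG organoids had 6 higher and 2 lower in KO, beside 18.1% and 13.4% of all genes. The medians of their log2 fold changes were 0.02, 0.24 and 0.07.

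**Figure D4:**
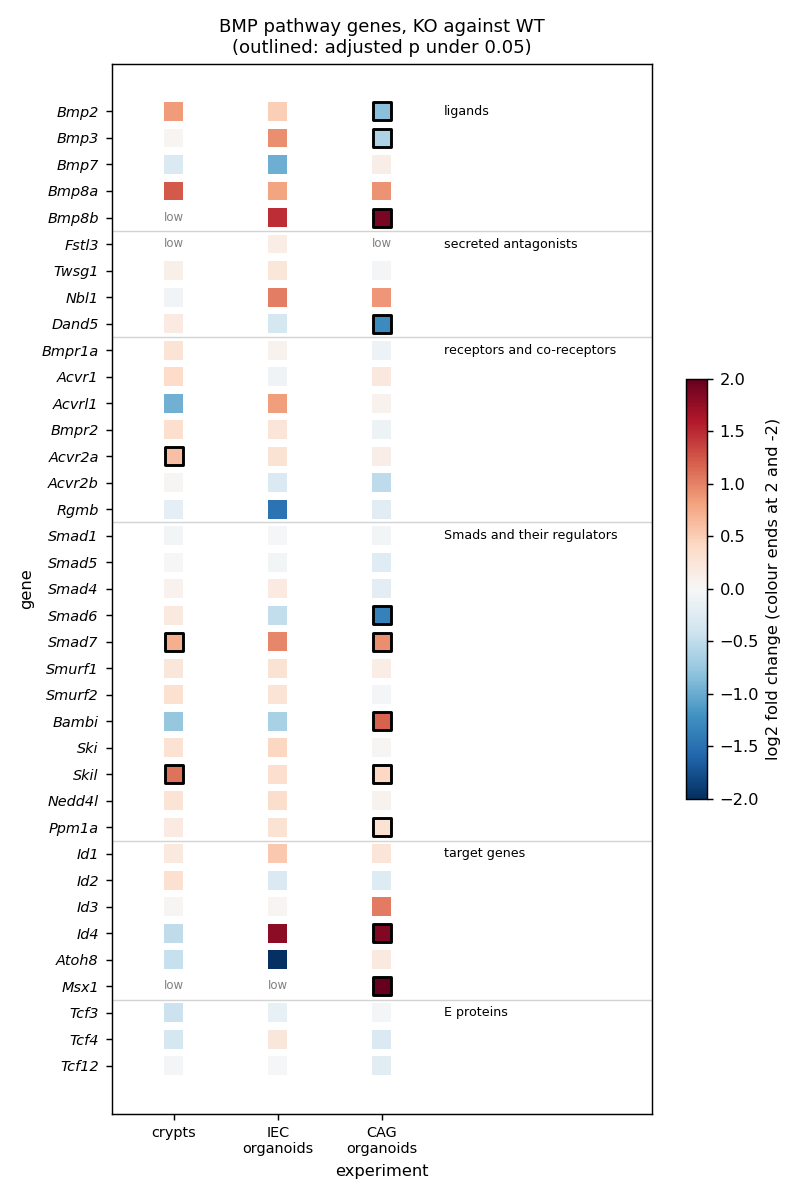
Log2 fold change of KO against WT (colour, from -2 in blue to 2 in red) of every BMP pathway gene tested in at least 1 experiment, in rows by role and columns by experiment, outlined where the adjusted p was under 0.05 and marked low where the gene was below the count filter. The outlines fall on 3 genes in the crypts (Smad7, Skil and Acvr2a), none in the IEC organoids and 11 genes in the CAG organoids.

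Among the ligands, Bmp8b and Bmp3 passed in the CAG organoids, in opposite directions. Bmp8b rose from 4.22 and 3.11 CPM in WT to 15.8 and 11.9 CPM in KO (log2 fold change 1.90, SE 0.25, adjusted p = 0.000446, edgeR). Bmp3, the most abundant ligand transcript by CPM in all 3 experiments and an atypical ligand that opposes the others, fell from 185 and 155 CPM to 118 and 103 CPM (log2 fold change -0.62, SE 0.10, adjusted p = 0.00162, edgeR). Neither gene had overlapping groups there. In 1 fit of all 16 libraries both calls were lost (adjusted p = 0.076 for Bmp8b and 0.28 for Bmp3, edgeR), at log2 fold changes of 1.91 and -0.63. In the IEC organoids Bmp3 had 96.2 and 92.0 CPM in WT against 121 and 239 CPM in KO, a log2 fold change of 0.94 that did not pass (adjusted p = 0.856, edgeR), and in the crypts it was 0.04.

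The secreted antagonists were sparse. Nog, which encodes Noggin, was at 0 counts in every library of the 3 experiments, and Grem1 was at 0 in all organoid libraries. A count of 0 was taken to allow up to 3 counts. For Nog that is a level of up to 0.178 to 0.408 CPM according to the library, scaled by total counts without the TMM factors. Noggin of the medium leaves no transcript in such counts. Twsg1, a BMP-binding modulator, was the most abundant, with 40.5 ± 5.37 CPM in WT against 44.1 ± 6.64 CPM in KO crypts (SD over 4 libraries each). Dand5, an antagonist of the Cerberus family, fell in the CAG organoids from 3.49 and 2.33 CPM to 1.25 and 1.15 CPM (log2 fold change -1.28, SE 0.40, adjusted p = 0.0322, edgeR), a call lost with DESeq2 (adjusted p = 0.19) and without WT replicate 1 or either KO replicate (0.073 to 0.328).

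Of the receptors beside Bmpr1a and Bmpr2, Acvr2a passed in the crypts. This type II receptor, shared with activin, was at 24.8, 29.4, 28.9 and 37.2 CPM in WT and 40.0, 51.7, 42.9 and 47.2 CPM in KO. All KO libraries were higher (log2 fold change 0.59, SE 0.14, adjusted p = 0.0455, edgeR). The co-receptor Rgmb was the most abundant receptor gene by CPM in the CAG organoids, with 170 ± 20.5 CPM in WT against 144 ± 15.4 CPM in KO (SD, n = 2 each). The IEC organoids had 170 ± 26.2 CPM in WT against 61.4 ± 27.4 CPM in KO, a log2 fold change of -1.47 (SE 0.35) that did not pass (adjusted p = 0.856, edgeR).

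Skil, which encodes the Smad co-repressor SnoN, was the other gene that passed in the crypts. It was at 49.4, 49.1, 50.5 and 64.8 CPM in WT and 86.0, 111, 150 and 107 CPM in KO IEC replicates 1 to 4. All KO libraries were higher, and the level rose by a log2 fold change of 1.09 (SE 0.17, adjusted p = 0.0298, edgeR). Skil also rose in the CAG organoids, from 20.7 and 18.3 to 27.8 and 24.5 CPM (log2 fold change 0.42, adjusted p = 0.0478, edgeR), a call lost with DESeq2 (adjusted p = 0.191), with library size only (0.0572) and without either WT replicate or KO replicate 1 (0.0823 to 0.279), while in the IEC organoids the value was 0.33 (adjusted p = 0.856). Within the low and middle class of mitochondrial ribosomal RNA the crypt difference was 1.18 and 0.73 log2 CPM for Skil and 0.84 and 0.34 for Acvr2a. Both crypt calls were lost with that class, the enterocyte score or the replicate block in the model, fits in which the calls over all genes went from 934 to 2, 1 and 4. The log2 fold change of Skil was then 1.02, 0.74 and 1.07, and that of Acvr2a 0.64, 0.43 and 0.60, both lowest with the score. They were also lost without any of WT replicates 1 to 3 or KO replicates 2 or 3, and that of Acvr2a without KO replicate 4 and with library size only, with adjusted p from 0.0531 to 0.132 in these fits. The fits without any of WT replicates 1 to 3 or KO replicates 2 or 3 called only 2 to 20 of all genes. DESeq2 called both (adjusted p = 2.48e-06 for Skil and 0.0041 for Acvr2a).

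Bambi and Ppm1a also passed in the CAG organoids. Bambi, a decoy receptor and itself a BMP target, rose from 3.49 and 3.50 to 8.48 and 7.50 CPM (log2 fold change 1.18, SE 0.25, adjusted p = 0.00598, edgeR), also by DESeq2 (adjusted p = 0.0256), while 1 fit of all 16 libraries lost the call (adjusted p = 0.196, edgeR). Its log2 fold change was -0.77 in the crypts (adjusted p = 0.201) and -0.66 in the IEC organoids (adjusted p = 0.856). Ppm1a, a phosphatase that acts on Smads and the most abundant gene of its list, rose slightly, from 143 ± 0.486 to 176 ± 15.0 CPM (SD, n = 2 each, log2 fold change 0.29, adjusted p = 0.0276, edgeR), a call lost with DESeq2 (adjusted p = 0.0759) and without either WT replicate or KO replicate 1 (0.0809 to 0.194).

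Among the targets beside Id1 to Id3, Id4 and Msx1 passed in the CAG organoids. Id4 rose from 1.81 and 2.98 to 10.4 and 7.02 CPM (log2 fold change 1.85, SE 0.33, adjusted p = 0.00234, edgeR). The IEC organoids gave Id4 7 and 10 counts in WT and 32 and 26 in KO, a log2 fold change of 1.78 that did not pass (adjusted p = 0.856, edgeR), and in the crypts it was -0.50. Msx1, a homeobox target of BMP, had 3 and 0 counts in WT and 10 and 17 in KO CAG organoids (adjusted p = 0.0154, edgeR, and 0.077 by DESeq2, also lost without WT replicate 2 at 0.139), so its fitted fold change depends on the prior count and is not given. In 1 fit of all 16 libraries the CAG organoid call of Id4 was kept (adjusted p = 0.0427, edgeR), and those of Dand5, Skil, Ppm1a and Msx1 were lost (adjusted p = 0.086, 0.335, 0.355 and 0.145). Of the E proteins, the partners that Id proteins sequester, 0 of 3 passed in each experiment by edgeR. At an unadjusted p under 0.05 were 2, 0 and 1 of 3, beside 31.9%, 4.66% and 43% of all genes. Beside 2457 of 13427, 26 of 13938 and 2761 of 13598 genes, DESeq2 called 1, 0 and 0 of the E proteins. Tcf3 was the most abundant of them, with 140 ± 15.7 CPM in WT against 105 ± 14.2 CPM in KO crypts (SD over 4 libraries each, log2 fold change -0.42, adjusted p = 0.0635, edgeR).

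The TGF-beta and activin arm, which shares Smad4 and Smad7, was set beside the BMP genes. Of 7 genes tested in each experiment, 0 passed in the crypts and the IEC organoids by edgeR, also 0 by DESeq2 and at an unadjusted p under 0.05, and 2 passed in the CAG organoids, beside 6.96%, 0.00717% and 31.5% of all genes in the same order of experiments. In the CAG organoids Acvr1c, a type I receptor for Nodal and activins, fell by 1.37 on the log2 scale (SE 0.22, adjusted p = 0.00129, edgeR), and Tgfbr2, the type II TGF-beta receptor, rose by 0.45 (SE 0.08, adjusted p = 0.00278, edgeR). In 1 fit of all 16 libraries the call of Tgfbr2 was lost (adjusted p = 0.451, edgeR) and that of Acvr1c was at the edge of the threshold (adjusted p = 0.0497). Acvr1b followed with -0.18 (adjusted p = 0.105, edgeR).

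Markers of other cell types are given for the same libraries. Stem cell markers summed to 1746 ± 356 CPM in WT against 1188 ± 241 CPM in KO crypts (SD over 4 libraries each), with Lgr5 and Ascl2 lower among 5 tested by edgeR, and 5 of 5 at an unadjusted p under 0.05 and 5 of 5 called by DESeq2. In the IEC organoids they summed to 2879 CPM in WT and 878 CPM in KO on average with 0 of 5 called by edgeR, 2 of 5 at an unadjusted p under 0.05 and 2 of 5 by DESeq2, and in the CAG organoids to 2848 and 2323 CPM with 1 higher and 2 lower. KO CAG organoids were higher in 9 of 10 enterocyte, 4 of 5 Paneth, 5 of 5 goblet, 5 of 5 enteroendocrine and 1 of 4 tuft markers by edgeR. DESeq2 called 9, 4, 5, 5 and 0 markers in the same order. Over all genes tested by edgeR, 2.66% were called lower in the crypts, and 18.1% higher and 13.4% lower in the CAG organoids. At an unadjusted p under 0.05 were 31.9% of all genes in the crypts and 4.66% in the IEC organoids. DESeq2 called 2457 of 13427 genes in the crypts, 26 of 13938 in the IEC organoids and 2761 of 13598 in the CAG organoids. In the crypts and the IEC organoids 0 of each of these 5 lists passed by edgeR. Beyond the enterocyte list, DESeq2 called 1 goblet and 1 Paneth marker in the crypts and 1 goblet marker in the IEC organoids. Unadjusted p under 0.05 were found for 1 Paneth, 1 goblet and 1 enteroendocrine marker in the crypts and for 1 enterocyte, 1 Paneth and 1 goblet marker in the IEC organoids. The part of these markers in the values of the BMP genes was not tested beyond the enterocyte score in the crypts.

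Immune cell markers were uneven across the crypt libraries. They summed to 36.5, 25.4, 20.2 and 67.6 CPM in WT replicates 1 to 4 and to 30.2, 30.8, 132 and 94.7 CPM in KO replicates 1 to 4, with Ptprc the most abundant and 0 of 8 called by edgeR, 1 at an unadjusted p under 0.05 and 1 by DESeq2. In the organoids they summed to at most 6.95 CPM on average, with Csf1r higher in KO CAG. KO replicate 3, the highest in Id1, Id2, Id3, Smad6 and Smad7, also had the highest immune sum. It had the lowest Paneth sum of the 8 crypt libraries, 1673 CPM against 6380 to 15433 CPM in the others, the lowest stem cell sum (866 CPM) and the highest goblet sum (10735 CPM). The part of these markers in its BMP gene levels was not tested. Mesenchyme markers summed to 18.2 ± 2.12 CPM in WT and 11.3 ± 1.08 CPM in KO crypts (SD over 4 libraries each), to 10.2 and 16.1 CPM in the IEC organoids and to 16.3 and 24.7 CPM in the CAG organoids. By edgeR and by DESeq2 0 of 4 and 0 of 2 were called in the crypts and the IEC organoids, with 1 in each at an unadjusted p under 0.05, and 1 of 2, Vim, was called higher in the CAG organoids by edgeR and not by DESeq2. Smooth muscle and endothelial markers averaged at most 1.41 CPM in sum in any group, and 0 of the 1 tested gene, Pecam1 in the crypts, was called.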

How the data were processed

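Each experiment has 1 table of whole-number counts per gene, which the authors deposited without normalization. Novogene made and sequenced the libraries. The submitters' processing notes name HISAT2 2.0.5 and featureCounts 1.5.0-p3. Their settings, strand use, genome build and annotation are not given in the sources used here, so reads of overlapping antisense genes cannot be told apart. Of the genes found in GENCODE M21 on GRCm38, 95.2% (crypts, CAG organoids) and 98.3% (IEC organoids) have the same start and end, among them all 10 genes reported, so positions are given on GRCm38.

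Each experiment was fitted by itself in R 4.3.3 with edgeR 4.0.16: filterByExpr, TMM scaling, the quasi-likelihood F test of KO against WT, and Benjamini-Hochberg adjustment over all genes tested, called at an adjusted p under 0.05. SE is the log2 fold change over the square root of F. The biological coefficient of variation was 0.231 in the crypts, 0.280 in the IEC organoids and 0.0815 in the CAG organoids. Differences between experiments were interaction terms in a fit of all 16 libraries. Log2 CPM carries a prior count of 2, and mitochondrial ribosomal RNA classes have bounds at 100 and 2000 CPM.

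The 10 genes and the lists, among them those reported (BMP roles, TGF-beta and activin arm, and markers of epithelium, enterocytes, stem, Paneth, goblet, enteroendocrine, tuft, mesenchyme, smooth muscle, endothelial and immune cells) were chosen with earlier results of these data known. Some items of the lists, and 1 marker list, are not reported here. Named were the 10 genes, Cul4b, and, per BMP list, up to 4 further genes with an adjusted p under 0.05 in any experiment and the most abundant one, plus the 3 genes of the TGF-beta arm with the smallest adjusted p. Alternatives were other scalings and filters, DESeq2 1.42.0, 1 fit of all libraries, a replicate block, covariates in the crypts, a fold of at least 2, and leaving out each library. The script was tested on simulated data.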

Additional observations from a re-analysis of the deposited data

Results flagged for a closer look

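KO IEC crypt replicate 3 stood apart from the other 3 KO IEC crypt libraries in 2 genes. Its Id1 level was 126 CPM against 69.6 to 73.9 CPM in the others, a gap of 0.923 of the group's whole range. Its Smad6 level was 32.3 CPM against 14.4 to 17.3 CPM, a gap of 0.838 of the range. Of 18 gene and group combinations examined in this way 2 had such a library, and chance gives about 1 in 20. The same library held the highest Smad7, Id2 and Id3 levels of the crypts, the highest immune marker sum, 132 CPM, and the lowest Paneth marker sum, 1673 CPM.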

How the results depend on the processing

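Smad7 kept a positive log2 fold change under every alternative run, from 0.44 to 0.83 in the crypts, 0.51 to 1.32 in the IEC organoids and 0.72 to 1.12 in the CAG organoids. Of the 10 genes, 1 was called in the crypts. This count was 0 with library size only, the replicate block, the mitochondrial ribosomal RNA class, the enterocyte score or a fold of at least 2, and 2 with DESeq2, and it ran from 0 to 2 when each library was left out. The 2 further pathway genes called in the crypts became 1 with library size only or a fold of at least 2, 6 with DESeq2, 4 in 1 fit of all libraries, 0 with the block or either covariate, and 0 to 5 without a library. In the IEC organoids, 0 of the 10 became 0 to 2 without a library, and 0 further genes became 3 with no filter, 1 in 1 fit and 0 to 6 without a library. In the CAG organoids, 3 of the 10 became 1 with DESeq2 or a fold of at least 2, 0 in 1 fit and 1 to 3 without a library. The 8 further genes became 5 with at least 10 counts in every library or a fold of at least 2, 4 with DESeq2, 1 in 1 fit and 5 to 9 without a library. The 0 genes with a different effect between experiments became 1 (Bmp2) with no filter and were 0 to 0 without a library.

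Signs turned only for values within their spread. In the crypts Id3 was -0.065 with library size only, -0.14 with the ribosomal RNA class and -0.33 with the enterocyte score, and the score gave -0.022 for Id1 and -0.12 for Id2. Without a library, crypt values ran from -0.029 to 0.30 for Id1, -0.13 to 0.13 for Id3 and -0.098 to 0.39 for Smad6. IEC organoid values ran from -0.25 to 0.98 for Bmp2, -0.70 to 0.046 for Id2, -0.72 to 0.54 for Id3 and -1.41 to 0.061 for Smad6, and those of Id1 in the CAG organoids from -0.057 to 0.62. The cause of these changes was not tested.

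Deviations of same-numbered crypt libraries correlated at -0.04, 0.19, -0.40 and 0.43. Those of differently numbered crypt libraries ran from -0.47 to 0.49, so no pairing by number was seen there. Same-numbered organoid libraries correlated at 0.34 (IEC) and 0.07 (CAG). With 2 libraries per group the swapped pairs can only mirror these values, so pairing in the organoids cannot be judged. With the replicate block Smad7 in the crypts was 0.70 (adjusted p = 0.0939, edgeR), Id3 in the IEC organoids -0.041, and the calls of the 10 genes in the organoids stayed at 0 and 3. Over all genes, the 934 crypt calls became 4 with the block, 2 with the ribosomal RNA class, 1 with the score, 2457 with DESeq2, 1659 of 15585 in 1 fit and 2 to 2468 without a library. The 4278 calls among 13598 genes in the CAG organoids became 2761 with DESeq2, 477 of 15585 in 1 fit, 3997 of 12562 with at least 10 counts in every library, 1169 with a fold of at least 2 and 2789 to 5177 without a library. With DESeq2 and in 1 fit, calls were thus lost over all genes as well as among the BMP genes. The 1 call in the IEC organoids became 223 with no filter, 18 in 1 fit and 0 to 2322 without a library. Library size only moved the median of all crypt genes to -0.09 and the share of higher calls from 61.8% to 51.0%. Depth limits Bmp4 throughout and Smad6, Smad7, Id1 and Id3 in the CAG organoids, where they rest on 5 to 53 counts per library.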
